A study of Mus musculus with 4 samples.

Results

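Astrocytes of the hypothalamic arcuate nucleus (ARC) of mice were taken from single-nucleus RNA-seq with a marker gate, which held 3933 of the 39176 nuclei kept (10.0%), out of 41649 deposited barcodes. A nucleus entered the gate when at least 3 of the 8 genes Agt, Slc7a10, Itih3, Ntsr2, Fgfr3, Gja1, Aqp4 and Atp13a4 had 1 or more unique molecular identifiers (UMIs, each marking 1 captured RNA copy) and when these 8 genes together made up at least 0.2% of its UMIs. Nuclei with 2 or more of the oligodendrocyte genes Mag, Mog, Mal and Ermn, or with 2 or more of the microglial genes C1qa, C1qb, Csf1r and P2ry12, were left out. The limits on quality asked for over 200 and under 7000 detected genes, under 25000 UMIs and a mitochondrial share below 15%.

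Wild-type male C57BL/6J mice received DOCA-salt and were compared with Sham-operated mice that drank water. DOCA-salt is an implant of the mineralocorticoid deoxycorticosterone acetate, with saline offered to drink beside water. Treatment lasted 3 weeks and the mice were 10 weeks old. Each group had 2 libraries, and each library pooled nuclei isolated from the ARC punches of 2 mice, so the library is the replicate and differences between single mice cannot be seen. The treatment raises blood pressure while the blood holds little renin, and the comparison asks which genes differ with it in ARC cell types.

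Astrocytes are the glia that surround synapses and vessels. They take up glutamate, GABA and potassium, carry water and ions through channels at their end-feet, couple to each other through gap junctions, and supply lipid and lactate to neurons. In the brain they are the main source of angiotensinogen (Agt), the precursor that renin and angiotensin-converting enzyme process to angiotensin II.

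The libraries differed in yield and depth. The gate held 819 of 10307 kept nuclei in DOCA-salt 1, 2370 of 18907 in DOCA-salt 2, 149 of 2203 in Sham 1 and 595 of 7759 in Sham 2, so DOCA-salt 2 supplied 60.3% of all gated nuclei. Gated nuclei had a median of 1540, 2118, 4920 and 2782 UMIs in these 4 libraries, and they summed to 2354498, 7739492, 895998 and 2672675 UMIs. Sham 1 had the fewest and the deepest nuclei, and both Sham libraries were deeper per nucleus than both DOCA-salt libraries. All values are given in this order of libraries below. Pairs of libraries shared 5 to 49 barcodes, and 2 of the shared barcodes were of gated nuclei in both libraries.

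Because the gate needs detected genes, nuclei near its limits depend on depth. Between 0.2% and 0.25% of UMIs in the gate genes were 93, 316, 20 and 103 gated nuclei, and 149, 386, 42 and 177 nuclei lay just outside, between 0.15% and 0.2%. Exactly 3 gate genes were seen in 132, 325, 3 and 84 gated nuclei, and 130, 372, 0 and 89 nuclei had 2 and otherwise met the rule. The oligodendrocyte and microglial limits took away 75, 484, 84 and 194 further nuclei.

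The label was checked against markers that the gate did not use, and the data matched it in part. The 24 astrocyte markers outside the gate, among them Apoe, Slc1a2, Slc1a3, Ndrg2 and S100b, summed to 14522, 13954, 16317 and 14750 CPM (UMIs of a gene per 1000000 UMIs of the nuclei summed) in gated nuclei, against 3709, 5026, 5768 and 5223 CPM in all other kept nuclei. They were 2.78 to 3.92 times higher in the gated nuclei of every library. The 11 neuronal genes also stood high in the gate, at 15070, 12315, 11192 and 15477 CPM, against 23304, 16640, 23074 and 23161 CPM in other nuclei. At least 3 of 9 neuron markers were detected in 49.8%, 63.0%, 96.0% and 72.3% of gated nuclei, 2473 nuclei in all, and the share was highest in the deepest library. The gate is therefore not read as astrocytes alone. Droplets also hold free RNA, and the background share of the neuron markers was not tested. Below, "gated nuclei" means the nuclei chosen by the rule.

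**Figure D1:**
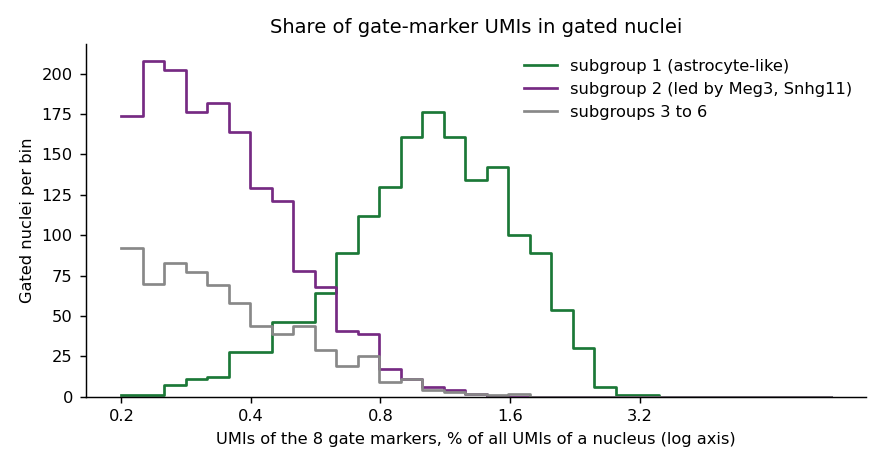
Number of gated nuclei by the share of their UMIs in the 8 gate genes, in percent on a log axis that starts at the gate's limit of 0.2%, with 1 line each for subgroup 1, subgroup 2 and subgroups 3 to 6, which are described next. Subgroup 1 (median 1.06%) lies to the right of subgroup 2 (median 0.326%), whose nuclei crowd toward the limit.

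Clustering of the gated nuclei separated them into 6 subgroups, which are described here without a test. Subgroup 1 held 1630 nuclei (41.4%), with 406, 934, 74 and 216 nuclei by library, and was astrocyte-like: all 8 gate markers and all 9 astrocyte markers fixed outside the gate were higher in it than in the other gated nuclei, the former being genes that the rule used. The 7 oligodendrocyte markers were higher in it too, at 1550 against 1102 CPM, as were 4 of 6 microglial markers, which summed to 106 against 72.8 CPM. Its leading genes were Gm9925, B230323A14Rik, Gm266, Gm3764, Phkg1, Gli1, Daam2, Atp13a4, Igsf11 and Fam228b, where Gli1 encodes a transcription factor of Sonic hedgehog signalling. The gate markers reached 9937 CPM in subgroup 1, against 3369 CPM in the other gated nuclei. Its neuronal genes were lower, at 3094, 3958, 6461 and 4367 CPM by library, and 29.2% of its nuclei had at least 3 neuron markers.

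Subgroup 2, almost as large with 1622 nuclei (41.2%), was led by neuronal and imprinted noncoding RNAs among other genes and stays unnamed. Its leading genes included Mirg, 2900055J20Rik, Cpne7 and Cntn5, and 95.2% of its nuclei had at least 3 neuron markers. All 9 neuron markers were higher in it than in the other gated nuclei, at 3637 against 2503 CPM. Of the 8 gate markers and the 9 astrocyte markers outside the gate, 0 were higher in it. Its median depth was 4420 UMIs, against 1085.5 UMIs in subgroup 1. Of its nuclei 18.0% were among those of highest doublet score, whose number was preset for each library. Subgroup 3 (359 nuclei, 9.13%) was led by Gm42418, AY036118, mt-Atp8 and Bc1 and also stays unnamed. It made up 7.20%, 6.79%, 11.4% and 20.5% of the gated nuclei by library, more in both Sham libraries than in both DOCA-salt libraries. The remaining nuclei were 166 endothelial and mural-like nuclei led by Eng and Cldn5, 123 oligodendrocyte precursor-like nuclei led by Gpr17, Neu4 and Pdgfra, and 33 ependymal-like nuclei led by Ccdc153 and Dnah12.

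**Figure D2:**
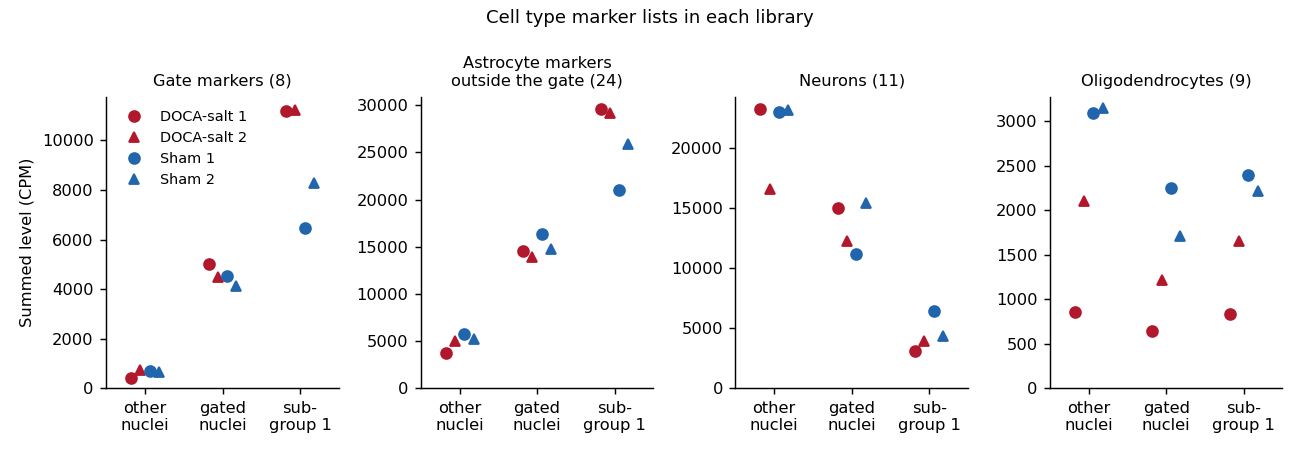
Summed CPM of 4 marker lists in other nuclei, gated nuclei and the astrocyte-like subgroup 1, with 1 point for each library (red DOCA-salt, blue Sham, circle replicate 1, triangle replicate 2). Both astrocyte lists are highest in subgroup 1, and the neuronal list is highest in other nuclei and lies between 11192 and 15477 CPM in gated nuclei.

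Droplet libraries hold free RNA, which gives UMIs in nuclei that do not express a gene, so detection was read beside nuclei of other types. Agt was detected in 86.1%, 94.98%, 96.6% and 92.4% of gated nuclei and also in 19.3%, 36.1%, 61.7% and 33.3% of other nuclei. In nuclei with 2 or more of the oligodendrocyte genes the shares were 30.03%, 56.4%, 72.6% and 51.7%. Nuclei were also thinned to 1000 UMIs each and gated anew, which left out 1978, 3603, 12 and 925 kept nuclei of lower depth, among them 25.3%, 23.9%, 0.671% and 7.56% of the gated nuclei. In the nuclei that remained, Agt was detected in 80.6%, 86.3%, 75.6% and 75.2% of gated nuclei and in 7.66%, 18.1%, 13.1% and 11.6% of other nuclei. Agt helped to choose the gated nuclei at both depths, so its higher share in them was fixed by the rule. At full depth the other nuclei included 790, 1543, 568 and 961 nuclei with 3 or more gate genes but a share under 0.2%. The shares in other nuclei can thus hold expression as well as free RNA, and how much each gave was not tested.

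The 8 gate markers were 5.93 to 11.8 times higher in gated than in other nuclei when summed, which the gate fixed. By gene, the ratio of the mean levels ran from 5.31 for Aqp4, the water channel of astrocyte end-feet, to 10.96 for Atp13a4, a P5-type ATPase. Agt stood at 1200 ± 221 CPM (SD, n = 4 libraries) in gated and 176 ± 66.3 CPM in other nuclei, and Slc7a10, a transporter of small neutral amino acids such as D-serine, at 313 ± 60.1 and 33.4 ± 8.06 CPM.

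Outside the gate and among genes of at least 20 CPM in the gated nuclei of every library, the 20 genes with the highest ratio were 6.42 to 10.2 times higher in gated nuclei by their means and at least 4.63 times higher in every library. Gli1 led at 32.6 ± 3.30 CPM in gated against 3.19 ± 0.910 CPM in other nuclei, 7.72 to 17.1 times higher by library. Other genes of developmental signalling on the list were Lfng, which modifies Notch receptors, the Notch target Hes5 and the Wnt receptor Fzd2. Phkg1, the catalytic subunit of phosphorylase kinase, stood at 114 ± 35.9 and 11.2 ± 2.07 CPM. Transport and metabolic genes of the list were the cystine/glutamate exchanger Slc7a11 (198 ± 49.1 and 27.2 ± 2.05 CPM), the ATP-hydrolysing ectoenzyme Entpd2, the NAD-consuming enzyme Cd38, Prodh of proline breakdown, and Cbs of cysteine synthesis. The list also held Grin2c, an NMDA receptor subunit, Gjb6, the gap junction protein connexin 30, F3 (tissue factor), Cyp4f15, Fam20a, AI464131, Gm3764, Gm266, B230323A14Rik and Gm9925. All of these ratios share the contrast of the gate and are a description of the nuclei it chose.

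**Figure D3:**
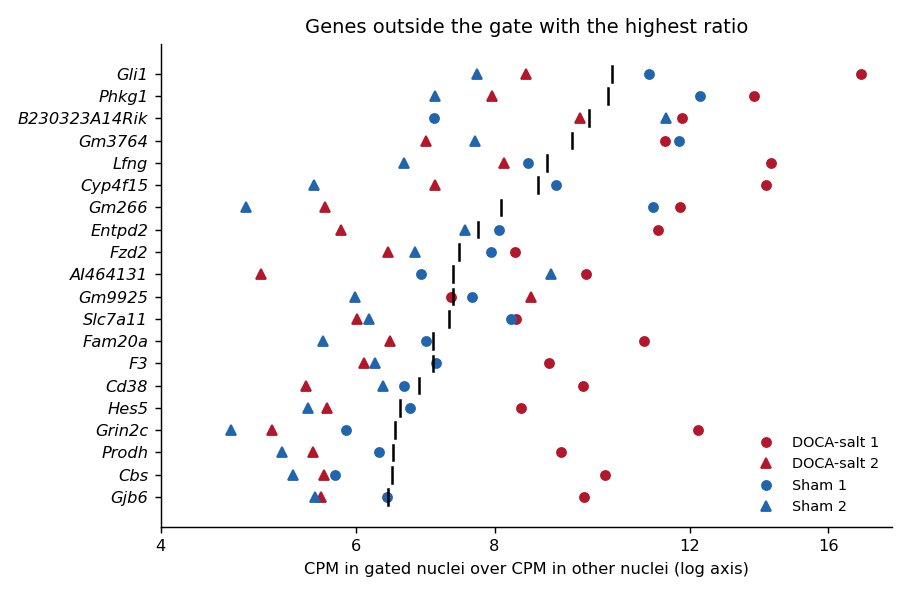
CPM in gated nuclei divided by CPM in other nuclei, on a log axis, for the 20 genes outside the gate with the highest ratio, with 1 point for each library (red DOCA-salt, blue Sham, circle replicate 1, triangle replicate 2) and a bar at the ratio of the means. Every point lies at 4.63 or above, and DOCA-salt 1 has the highest ratio for most genes.

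The share of kept nuclei in the gate was 7.95% and 12.5% in the DOCA-salt libraries and 6.76% and 7.67% in the Sham libraries. The means were 10.2% ± 3.24 and 7.22% ± 0.640 (SD, n = 2 libraries), a difference of 3.02 percentage points with both DOCA-salt values above both Sham values (two-sided exact permutation p = 0.333, the smallest that 2 against 2 libraries allow). Among nuclei thinned to 1000 UMIs, without the shallower ones that came mostly from the DOCA-salt libraries, the shares were 5.99%, 9.27%, 7.49% and 7.30%, the groups overlapped, and the difference was 0.238 percentage points (exact permutation p = 1). Without DOCA-salt 2 the full-depth difference was 0.730 percentage points. The astrocyte-like subgroup alone made up 3.94%, 4.94%, 3.36% and 2.78% of kept nuclei, or 4.44% ± 0.708 against 3.07% ± 0.407 (exact permutation p = 0.333).

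Between DOCA-salt and Sham, 4 genes differed in gated nuclei, and all 4 were lower under DOCA-salt. Counts were summed over the gated nuclei of each library and 12425 genes were tested with edgeR's quasi-likelihood test, of which 0.0322% were called at a Benjamini-Hochberg adjusted p under 0.05. At an unadjusted p under 0.05 there were 1038 genes, 340 higher and 698 lower.

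Bc1, a short cytoplasmic noncoding RNA that RNA polymerase III transcribes and that is known from neuronal dendrites, had the largest change of the 4. Its level in gated nuclei was 268 and 359 CPM under DOCA-salt against 2581 and 3611 CPM under Sham, from 630, 2781, 2313 and 9651 UMIs. Both DOCA-salt libraries lay far below both Sham libraries, and the fitted difference was a log2 fold change of −3.39 (SE 0.30, adjusted p = 1.3e-04), or 10.5-fold lower. Other nuclei of the same libraries gave 204, 307, 2203 and 3100 CPM and the same order. The Bc1 transcript (GENCODE, GRCm38, chr7:144914470-144914637, plus strand, 1 exon, annotated as a lincRNA) is shown because it leads the comparison and because its run of 23 A bases, in capitals, lies within the transcript rather than at its end, in libraries that were primed at A-rich sequence:
Bc1: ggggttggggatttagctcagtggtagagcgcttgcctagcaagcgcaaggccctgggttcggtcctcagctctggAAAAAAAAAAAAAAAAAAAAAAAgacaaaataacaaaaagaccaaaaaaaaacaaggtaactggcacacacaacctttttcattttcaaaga

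Nts, the neuropeptide neurotensin (GRCm38, chr10:102481756-102490486, minus strand), stood at 17.0 and 20.3 CPM under DOCA-salt against 123 and 107 CPM under Sham. The groups did not overlap, and the log2 fold change was −2.67 (SE 0.23, adjusted p = 1.3e-04). Other nuclei held more Nts, at 29.1, 32.6, 197 and 135 CPM, and were ordered alike. The gate gene Ntsr2, a neurotensin receptor of astrocytes, stood at 777, 609, 538 and 533 CPM.

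The mitochondrial gene mt-Atp8, which overlaps mt-Atp6 on the same strand so that reads in the overlap cannot be assigned with certainty, stood at 152, 88.1, 463 and 562 CPM (log2 fold change −2.20, SE 0.28, adjusted p = 0.0084). With the replicate number as a block it was no longer called (−2.24, adjusted p = 0.108). Hist1h1e, a linker histone H1 gene (GRCm38, chr13:23620629-23622558, minus strand), stood at 10.2, 6.20, 37.9 and 31.1 CPM (log2 fold change −2.22, SE 0.32, adjusted p = 0.0222). Its call was lost in 6 of 14 alternatives, among them thinning (−2.26, adjusted p = 0.393) and the astrocyte-like subgroup (−2.14, adjusted p = 0.141), with folds of similar size. For both genes the groups did not overlap, and other nuclei showed the same order, at 128, 71.7, 321 and 459 CPM for mt-Atp8 and 10.6, 4.59, 37.7 and 28.0 CPM for Hist1h1e. Bc1 and mt-Atp8 were among the leading genes of subgroup 3, whose share was also higher in both Sham libraries, and its part in these calls was not tested. None of the 4 differences was itself called as different between gated and other nuclei.

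In other nuclei 0 of 16463 genes were called by edgeR, with 1401 at an unadjusted p under 0.05, and the 4 genes had log2 fold changes of −3.40 for Bc1, −2.46 for Nts, −2.02 for mt-Atp8 and −2.18 for Hist1h1e there. The labels give no preparation date of the libraries, so whether a batch moves with the groups was not tested. The number called in gated nuclei depended on the libraries: it was 952 without DOCA-salt 1, 129 without DOCA-salt 2, 18 without Sham 1 and 43 without Sham 2, always with these 4 genes among them.

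**Figure D4:**
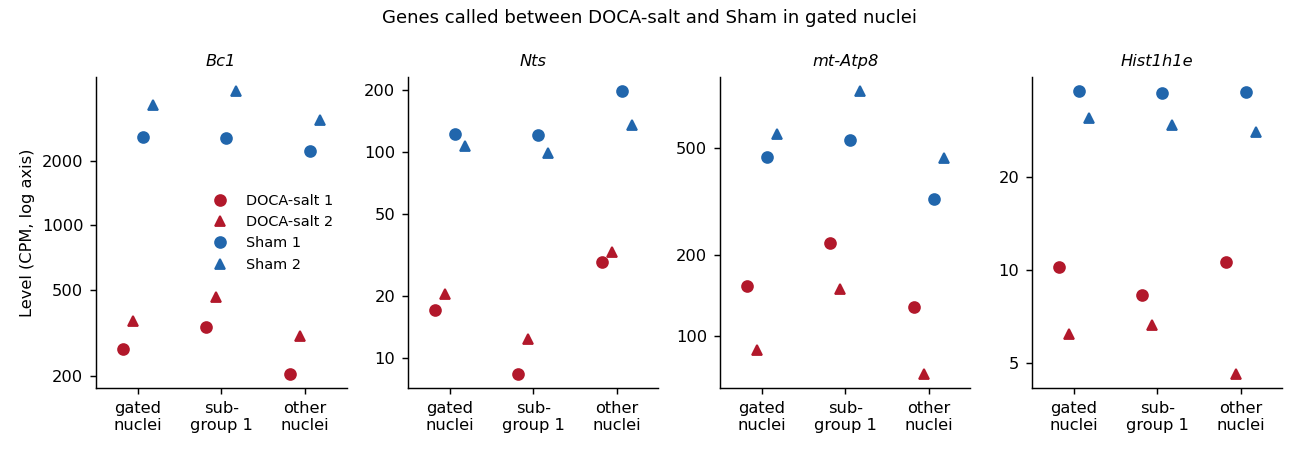
CPM on a log axis of the 4 genes called between DOCA-salt and Sham in gated nuclei, shown in gated nuclei, in the astrocyte-like subgroup 1 and in other nuclei, with 1 point for each library (red DOCA-salt, blue Sham, circle replicate 1, triangle replicate 2). Both DOCA-salt libraries lie below both Sham libraries for each gene in each class of nuclei.

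Within the astrocyte-like subgroup alone, a choice added after the data were seen, 13 of 8119 genes were called (0.16%), 4 higher (0.0493%) and 9 lower (0.111%) under DOCA-salt, and 350 were higher and 432 lower at an unadjusted p under 0.05. Hes5, a transcription factor that Notch signalling induces, stood at 768 and 735 CPM under DOCA-salt against 291 and 293 CPM under Sham, and the groups were well apart. Its log2 fold change was 1.39 (SE 0.31, adjusted p = 0.0385), against 0.48 (adjusted p = 0.646) over all gated nuclei. Abhd14b rose likewise, from 43.3 and 71.7 CPM to 156 and 153 CPM (log2 fold change 1.42, adjusted p = 0.0427).

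Cyp4f15, a cytochrome P450 of fatty acid oxidation and 1 of the 20 genes with the highest ratio, stood at 193 and 172 CPM under DOCA-salt against 75.0 and 69.6 CPM under Sham (log2 fold change 1.36, adjusted p = 0.0427). The remaining higher gene, Pmch, which encodes melanin-concentrating hormone of lateral hypothalamic neurons, rested on 1 library, with 2.08, 2067, 14.4 and 23.2 CPM. Without DOCA-salt 2 its log2 fold change was −3.03.

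Of the 9 lower genes, Bc1 (log2 fold change −3.04), Nts (−3.27) and mt-Atp8 (−1.86) were also called over all gated nuclei. The other 6 were Ksr2 (−2.10), Prdm2 (−1.96), Gm42418 (−1.91), Map7d2 (−1.80), Rbfox3 (−1.55), the gene of the neuronal nuclear antigen NeuN, and Cmip (−1.34). Gm42418 overlaps a ribosomal RNA repeat, and Rbfox3 is a gene that astrocytes lack. The neuronal list in this subgroup summed to 3094 and 3958 CPM under DOCA-salt against 6461 and 4367 CPM under Sham, and the gate markers to 11200, 11227, 6472 and 8291 CPM. Both lists separated the groups, in opposite directions, and their part in these calls was not tested. The calls did not hold when either DOCA-salt library was left out, which left 1 library in that group. Without DOCA-salt 1 and without DOCA-salt 2, the log2 fold changes were −2.83 and −3.31 for Bc1, −3.10 and −3.65 for Nts and 1.36 and 1.42 for Hes5. Pmch turned from 6.75 to −3.03. Hes5, Abhd14b, Cyp4f15 and Cmip also lost their calls with the replicate number as a block and when either Sham library was left out.

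None of the astrocyte genes in the fixed lists was called in gated nuclei, so the lists are given by counts beside those of all tested genes. Over all 12425 genes both DOCA-salt libraries lay above both Sham libraries in 27.1% and below them in 15%, 340 genes were higher and 698 lower at an unadjusted p under 0.05, and the median log2 fold change was 0.00. The values below are CPM in gated nuclei.

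Ion transport genes keep potassium, sodium and pH around neurons in balance. Of 20 genes for sodium, potassium and bicarbonate transport, 0 were called, 5 were lower at an unadjusted p under 0.05, and both DOCA-salt libraries lay below both Sham libraries in 8 and above them in 4. Kcnj10, the inward rectifier potassium channel that buffers extracellular potassium, stood at 223, 189, 276 and 348 CPM (log2 fold change −0.70, SE 0.23, adjusted p = 0.434). The sodium bicarbonate cotransporter Slc4a4 stood at 771, 629, 1175 and 913 CPM (−0.67, adjusted p = 0.5003). Atp1b1, a beta subunit of the sodium and potassium pump, stood at 1131, 1329, 973 and 1110 CPM (0.15, adjusted p = 0.894). In these 3 genes the groups did not overlap, but no difference passed the adjusted threshold. In the astrocyte-like subgroup the log2 fold changes were −0.07 for Kcnj10, −0.08 for Slc4a4 and −0.09 for Atp1b1.

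Corticosteroid receptors and response genes bear on the treatment, which activates the mineralocorticoid receptor. Of 24 listed genes 20 were tested and 0 were called, with 4 lower and 0 higher at an unadjusted p under 0.05. Nr3c2, the mineralocorticoid receptor itself, stood at 18.7 and 14.2 CPM under DOCA-salt against 39.1 and 26.9 CPM under Sham (log2 fold change −1.07, SE 0.29, adjusted p = 0.357). Its groups did not overlap in gated nuclei, and the log2 fold change in the astrocyte-like subgroup was −0.98 (adjusted p = 0.449). Klf9, a glucocorticoid-induced transcription factor, stood at 194, 88.5, 247 and 207 CPM (−0.80, adjusted p = 0.513), and the metallothionein genes Mt1 and Mt2 had log2 fold changes of −0.23 and −0.42. In the astrocyte-like subgroup the values were −0.36 for Klf9, 0.33 for Mt1 and 0.13 for Mt2. The median of the list was −0.11 in gated nuclei and 0.13 in the subgroup. Hsd11b2, which inactivates glucocorticoids, Pdk4, Arl4d and the sodium channel subunit Scnn1a were too low to test.

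Renin-angiotensin genes were represented by their substrate, by proteases and by the renin receptor. Of 16 listed genes 8 were tested, 0 were called and 0 had an unadjusted p under 0.05, while in 5 both DOCA-salt libraries lay above both Sham libraries. Agt stood at 1256, 1489, 1048 and 1008 CPM in gated nuclei and at 2847, 3474, 1443 and 1983 CPM in the astrocyte-like subgroup, where the log2 fold change was 0.91 (SE 0.32, adjusted p = 0.312). Agt helped to choose the nuclei, so these values are a description. Cathepsin D (Ctsd) had a log2 fold change of 0.36 and the renin receptor Atp6ap2 of 0.28 (adjusted p = 0.702 and 0.758). Ren1, Agtr1a, Agtr1b, Agtr2, Mas1, Enpep and Anpep were among those too low to test in gated nuclei.

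Each gate marker was tested in nuclei chosen without it, by the other 7 genes. None of the 8 was called by edgeR and none had an unadjusted p under 0.05. Agt then stood at 1451 and 1853 CPM under DOCA-salt against 1132 and 1128 CPM under Sham (log2 fold change 0.47, SE 0.25, adjusted p = 0.606), with the groups apart. The other log2 fold changes were −0.42 for Slc7a10, −0.38 for Aqp4, −0.31 for Gja1 (connexin 43), −0.11 for Itih3, −0.02 for Atp13a4, 0.23 for Fgfr3 and 0.30 for Ntsr2. Without DOCA-salt 1, which left 1 library in that group, the log2 fold changes were 0.66 for Agt, −0.64 for Aqp4, −0.54 for Slc7a10 and −0.42 for Atp13a4. They were −0.32 for Gja1, −0.27 for Itih3, 0.05 for Fgfr3 and 0.14 for Ntsr2. The size of several of these differences thus depended on 1 library.

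The 24 astrocyte markers outside the gate had a median log2 fold change of −0.15 in gated nuclei and 0.28 in the astrocyte-like subgroup, with 0 called in either. In gated nuclei 5 were lower at an unadjusted p under 0.05, led by the calcium-binding protein gene S100b at 86.6 and 106 CPM under DOCA-salt against 227 and 204 CPM under Sham (log2 fold change −1.24, SE 0.23, adjusted p = 0.120). In the astrocyte-like subgroup 6 were higher and 1 was lower at that level, beside 350 higher and 432 lower of all 8119 genes. Apoe, the main lipid carrier made by astrocytes, stood at 3377, 4085, 3551 and 3462 CPM (0.00, SE 0.25), and the 27 genes of lipid and cholesterol handling had 0 genes under an unadjusted p of 0.05. The glutamate transporters Slc1a2 (−0.40) and Slc1a3 (−0.39) and the GABA transporter Slc6a11 (−0.07) did not pass the test, and of the 23 genes of glutamate and GABA handling 1, Gabbr2, was lower at an unadjusted p under 0.05. In the astrocyte-like subgroup the log2 fold changes were 0.18 for Slc1a2, 0.25 for Slc1a3, 0.55 for Slc6a11 and 0.58 for Apoe. The median of the glutamate and GABA list was −0.16 in gated nuclei and 0.20 in the subgroup. Of 12 gap junction and end-foot genes 2 were lower at that level, among them Dag1 (−0.51), and 0 were called.

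Reactive astrocyte genes were low in these nuclei. Of 30 listed genes 15 were tested and 0 were called, and Lcn2, C3, Serping1, Cxcl10 and Osmr were among those too low to test. Gfap, the intermediate filament that reactive astrocytes accumulate, stood at 70.1 and 42.4 CPM under DOCA-salt against 23.4 and 74.5 CPM under Sham, so the groups overlapped. It was detected in 9.40%, 10.97%, 14.1% and 22.5% of gated nuclei, against 5.02%, 5.32%, 15.5% and 14.9% of other nuclei. Among the thinned nuclei, again without the shallower ones, the shares were 5.21%, 4.44%, 3.66% and 7.82% of gated and 1.66%, 1.64%, 1.97% and 4.56% of other nuclei, higher in gated nuclei of every library. The class I histocompatibility gene H2-D1 was the 1 listed gene at an unadjusted p under 0.05, at 57.3, 52.5, 26.8 and 31.4 CPM (log2 fold change 0.80, adjusted p = 0.384). In the astrocyte-like subgroup its log2 fold change was 0.27 (adjusted p = 0.886). The complement gene C4b stood at 63.7, 58.8, 44.6 and 46.0 CPM (0.34, adjusted p = 0.702). In the astrocyte-like subgroup C4b stood at 106, 168, 60.6 and 67.4 CPM (1.15, SE 0.32, adjusted p = 0.156), and 2 of 8 reactive genes tested there were higher at an unadjusted p under 0.05, beside 350 of all 8119 genes, with 0 called.

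Among 22 tested astrocyte transcription factors 0 were called and 3 were lower at an unadjusted p under 0.05, with Nfix at 111, 78.7, 192 and 173 CPM (log2 fold change −1.05, SE 0.23, adjusted p = 0.245). Receptors (23 tested) and synaptogenic, matrix and phagocytic genes (21 tested) had 2 and 3 lower genes at that level, led by the adenosine receptor gene Adora1 (−0.78) and the adhesion gene Ntm (−0.85). Tonicity and osmolyte genes (20 tested) and clock genes (18 tested) had none, and glycolysis, glycogen and lactate genes (14 tested) had 1, higher, Pfkfb2 (0.73). Regional genes of telencephalic (6 tested) and diencephalic (7 tested) astrocytes had 1 gene each lower at that level, which in the diencephalic list was Sparc (−0.66).

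Some markers of other cells separated the groups in the same nuclei. Of 9 oligodendrocyte genes 0 were called, but in 8 both DOCA-salt libraries lay below both Sham libraries. The list summed to 643, 1222, 2247 and 1706 CPM with a median log2 fold change of −1.03. It holds genes that the rule used to leave nuclei out, among them Mog, as the microglial list does with C1qb. The values of both lists are therefore a description. The 8 endothelial and mural genes had a median log2 fold change of 0.56 with 3 higher at an unadjusted p under 0.05. Both DOCA-salt libraries lay above both Sham libraries in 1 of them, the tight junction gene Cldn5, at 30.6, 86.1, 13.4 and 21.3 CPM. The list summed to 169, 407, 165 and 202 CPM, so the groups overlapped. Neurons (median −0.17), microglia (−0.25), tanycytes (0.10), ependymal cells (0.23) and oligodendrocyte precursors (0.02) had 0 called genes, and their part in the values above was not tested. Among 12 tested library quality genes Bc1 and mt-Atp8 were called, 1 gene was higher and 4 lower at an unadjusted p under 0.05, and the median log2 fold change was −0.30.

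**Figure D5:**
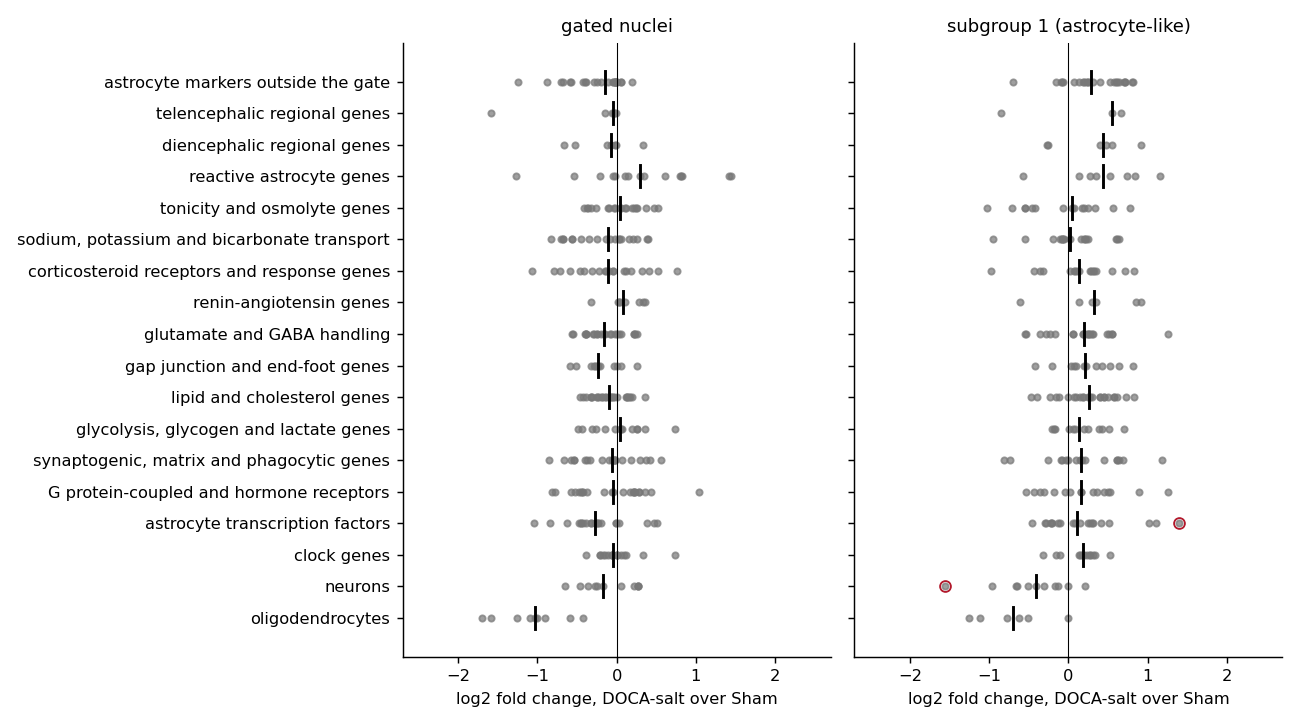
Log2 fold change of DOCA-salt over Sham for the tested genes of the astrocyte lists and of the neuron and oligodendrocyte lists, in gated nuclei (left) and in subgroup 1 (right), with 1 point for each gene, a bar at each list's median and a red ring around called genes. Medians in gated nuclei lie between −1.03 (oligodendrocytes) and 0.30 (reactive astrocyte genes), and the 2 ringed genes are Hes5 and Rbfox3 in subgroup 1. The oligodendrocyte list holds genes that the rule used to leave nuclei out.

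The difference between DOCA-salt and Sham in gated nuclei was compared with that in the other nuclei of the same libraries, with each library as a block. Of 15757 genes 3 (0.019%) were called by edgeR, with a lower difference in gated nuclei for Oxt and Meis2 (0.0127%) and a higher one for Hbb-bs (0.00635%), and 641 had an unadjusted p under 0.05. Oxt, the neuropeptide oxytocin, stood at 4.67, 296, 228 and 562 CPM in gated and 9.23, 988, 176 and 410 CPM in other nuclei. Its gated level was below that of other nuclei in both DOCA-salt libraries and above it in both Sham libraries. The log2 difference of −2.23 turned to 0.72 for the astrocyte-like subgroup and to 1.28 against oligodendrocytes chosen by share. None of the genes in the astrocyte lists was called in this test of gated nuclei. For the astrocyte-like subgroup, chosen after the data were seen, the same test called 110 of 15367 genes (0.716%), 95 of them higher and 15 lower. Among the 110 were the 8 gate markers, which the rule used, and 19 of the 24 astrocyte markers outside the gate. The subgroup came from clustering on expression and was named from markers of both kinds, so these counts are a description. In the subgroup's own comparison of DOCA-salt with Sham, 0 of the 24 were called.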

How the data were processed

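Nuclei of punched ARC tissue were sequenced with the 10x 3′ v3 kit, and the authors made the deposited counts, UMIs per gene and barcode, with Cell Ranger 3.0.1 on mm10. The files list 31053 genes and no column was left unmapped (0). The limits on nuclei and the gate are given in the results. Library totals were 45126915, 79437196, 53257230 and 59293582 UMIs over deposited barcodes.

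Counts were summed over the gated nuclei of each library and tested with edgeR 4.0.16 (quasi-likelihood test, TMM, filterByExpr, Benjamini-Hochberg adjustment over all tested genes), in place of the per-nucleus MAST test of the study, since nuclei are not replicates. CPM was taken over the summed nuclei of each library. With 2 libraries a group, an exact permutation test cannot go below p = 0.333. Each library is a pool of mice, so p-values measure the spread between pools. The interaction fit held gated and other nuclei with a term for each library. Subgroups came from scanpy 1.11.5 (Leiden, resolution 0.5, 2000 variable genes, 20 components, 20 neighbours).

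Doublets were scored with Scrublet in scanpy. Its automatic threshold marked 0, 0, 4 and 0 nuclei, so the nuclei of highest score at a rate of 0.8% per 1000 nuclei were marked. These held 65, 255, 0 and 14 gated nuclei, which stayed in and were left out in an alternative.

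The genes named were the gate markers, all called genes, of each list its called genes, its 4 most abundant genes and its gene of lowest p, the 20 genes of highest ratio, and the leading genes of subgroups. The members, lists and tests were chosen with earlier results of these data known. Alternatives were another normalization, filter, gate, depth, doublet treatment, DESeq2 1.42.0 and leaving out each library. On simulated counts with 200 genes changed 4-fold, the fit in gated nuclei recovered 100% with 7 false calls among 12349 genes, that in the subgroup 99.5% with 14 among 8056, and the interaction 94% with 13 among 12754. The simulation gave every gene the same spread and every library the same profile apart from the changed genes. Only genes of over 200 summed UMIs were changed. It checks that the fits run as meant and does not show what share of 4-fold changes the real libraries would reveal. A few genes that the rule names are not reported here.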

Additional observations from a re-analysis of the deposited data

Results flagged for a closer look

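For 3 genes the difference between DOCA-salt and Sham in gated nuclei differed from that in other nuclei of the same libraries (edgeR's quasi-likelihood test of the interaction, library as a block). Oxt had a log2 difference of −2.23 (SE 0.13, adjusted p = 3.69e-08), with 4.67, 296, 228 and 562 CPM in gated and 9.23, 988, 176 and 410 CPM in other nuclei of DOCA-salt 1, DOCA-salt 2, Sham 1 and Sham 2. Its direction turned for the astrocyte-like subgroup (0.72) and against oligodendrocytes chosen by share (1.28), and without DOCA-salt 2 the difference was −1.44. Meis2, a homeobox transcription factor, had −2.16 (SE 0.33, adjusted p = 0.0286), with 68.4, 29.8, 19.0 and 12.7 CPM in gated and 127, 32.9, 4.52 and 4.94 CPM in other nuclei. It lost its call against oligodendrocytes chosen by share (−0.96, adjusted p = 0.9997) and without Sham 2 (−2.63, adjusted p = 0.0514). Hbb-bs, a beta-globin gene of red blood cells, had 1.05 (SE 0.15, adjusted p = 0.0195), with 96.8, 142, 89.3 and 162 CPM in gated and 44.7, 87.1, 131 and 178 CPM in other nuclei. It lost its call against oligodendrocytes chosen by share (1.02, adjusted p = 0.226) and for the astrocyte-like subgroup (0.38, adjusted p = 0.897).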

How the results depend on the processing

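Between DOCA-salt and Sham, the 4 calls in gated nuclei became 109 without the filter on low counts, 33 with DESeq2, 13 in the astrocyte-like subgroup (an alternative chosen after seeing the data), 2 with a replicate block, and 1 with the gate genes, mitochondrial genes, Bc1, Gm42418, AY036118 and Malat1 left out of the table, which takes away 2 of the 4 by construction. With 1 library left out they ranged from 18 to 952, where the lone library of a group is assumed to vary like the others. They numbered 3 to 5 under RLE size factors, the other gates, thinning, and removal of doublets or of nuclei with neuron markers. Thinned, 3 of the 5 were among the 4 and 1 was higher. With neuron-marker nuclei removed, 2 of the 4 were the same genes, Bc1 and mt-Atp8, and the other 2 were higher. That setting left Sham 1 with only 6 nuclei and 15377 UMIs, and 7138 genes were tested. Bc1 and Nts were called under every alternative that gave them an adjusted p. Nts was not tested without neuron-marker nuclei and had no adjusted p from DESeq2, nor did Hist1h1e. The gene mt-Atp8 lost its call under the block, and Hist1h1e in 6 alternatives, among them the block. The replicate numbers do not pair the samples (r = −0.0523 over 12425 genes). The 13 calls in the subgroup numbered 13 with a replicate block, 9 of them shared, where Hes5, Abhd14b, Cyp4f15 and Cmip lost their calls. They ranged from 0 to 13 with 1 library left out, and the log2 fold change of Pmch from −3.03 (without DOCA-salt 2) to 6.75. The 3 interaction calls became 32 without the filter, 9 against oligodendrocytes, 110 for the subgroup (95 higher, among them genes that defined it) and 11 to 97 with 1 library left out. Oxt turned to 1.28 against oligodendrocytes chosen by share and to 0.72 for the subgroup, both chosen after seeing the data. Gate markers called ranged from 0 to 2 with 1 library left out. The cause of these shifts was not tested. The share of nuclei in the gate kept its direction in all 10 alternatives run, but the difference ranged from 0.238 (thinned) to 5.32 percentage points (without DOCA-salt 1). The groups overlapped when thinned. They also overlapped with doublets left out, at 7.97% and 13.2% for DOCA-salt against 6.89% and 7.98% for Sham (exact permutation p = 0.667). Sham 1, with 149 gated nuclei and 895998 UMIs in them, had the fewest counts behind its values.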

Other observations

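Neuropeptide genes of neurons varied between libraries within the gated nuclei. Pmch stood at 3.40, 1507, 59.2 and 10.5 CPM in DOCA-salt 1, DOCA-salt 2, Sham 1 and Sham 2, and Avp, the vasopressin gene, at 2.12, 526, 78.1 and 143 CPM, so DOCA-salt 2 was highest and DOCA-salt 1 lowest in both. Sst, the somatostatin gene, was even by comparison, at 286, 296, 244 and 251 CPM. Of 12 neuropeptide genes tested 1, Nts, was called between DOCA-salt and Sham by edgeR. Crym, in the tanycyte list, was high in DOCA-salt 1 alone, with 67.1 CPM against 4.39, 5.58 and 4.49 CPM elsewhere.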
